A study of Mus musculus with 4 samples.

Results

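The genes examined were the one encoding CD45 (Ptprc) and 9 other protein tyrosine phosphatase genes of B cells, namely Ptpn1, Ptpn2, Ptpn6, Ptpn11, Ptpn12, Ptpn18, Ptpn22, Ptprj and Ptpra. They were taken by gene symbol, and these 10 genes were all found among the 55401 genes of the count table. The mRNA was sequenced from follicular B (FOB) cells sorted from the spleen of 7 week old C57BL/6 mice, with 2 libraries of WT mice and 2 libraries of Hnrnpf bKO mice. Hnrnpf bKO stands for mice that carry floxed Hnrnpf alleles (Hnrnpf fl/fl) and a Cre expressed in B cells, so that the gene for the splicing factor hnRNP F is deleted in B cells. The sort gate was B220+CD93-CD23highCD21low in both groups. The labels do not say whether the WT mice carried this Cre, and neither the labels nor the methods say whether the libraries came from separate or pooled mice, so p-values measure the spread between these libraries, which may be technical.

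Tyrosine phosphatases remove phosphate from tyrosine residues and so set, together with kinases, how strongly a B cell receptor signals. CD45 is an abundant transmembrane phosphatase of leukocytes that removes an inhibitory phosphate from Src family kinases such as Lyn, whereas SHP-1, the product of Ptpn6, is recruited to inhibitory receptors such as CD22 and dampens the same signal. CD45 is also a textbook case of alternative splicing, because exons 4, 5 and 6 can each be kept or skipped, and the B220 antibody of the sort recognises a CD45 isoform that B cells make by keeping variable exons.

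The variable exons of Ptprc are shown because hnRNP F is known to bind runs of G in RNA, and because the sort itself used a product of these exons. The gene lies on the minus strand of chromosome 1, and in GRCm38 exon 4 is chr1:138122456-138122584, exon 5 is chr1:138120020-138120166 and exon 6 is chr1:138117754-138117894, as given by GENCODE M21. They are coding exons of 129, 147 and 141 bases, each a multiple of 3, and together they hold 417 bases or 139 codons. The exons are written 5′ to 3′ on the RNA strand, with runs of 3 or more G (letters GGG, searched on that strand only) in capitals.
Ptprc exon 4: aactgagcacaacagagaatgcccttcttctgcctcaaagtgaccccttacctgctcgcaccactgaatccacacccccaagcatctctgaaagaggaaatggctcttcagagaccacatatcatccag
Ptprc exon 5: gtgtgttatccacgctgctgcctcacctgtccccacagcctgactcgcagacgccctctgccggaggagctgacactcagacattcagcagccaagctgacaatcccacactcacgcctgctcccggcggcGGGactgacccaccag
Ptprc exon 6: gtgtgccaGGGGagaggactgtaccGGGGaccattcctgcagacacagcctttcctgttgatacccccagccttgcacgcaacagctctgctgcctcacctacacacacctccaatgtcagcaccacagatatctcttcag
First 60 bases of the intron after exon 5: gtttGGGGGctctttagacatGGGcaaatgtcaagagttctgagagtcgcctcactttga
Exon 4 held 0 runs of G, exon 5 held 1 and exon 6 held 2. The first 60 bases of the intron after exon 5, at chr1:138119960-138120019 and read from an annotated transcript that keeps them, held 2 runs, whereas the same stretch after exon 6 held 0. Among 21101 internal exons of coding genes with 129 to 147 bases, 74.7% held at least 1 run, and among 25061 intron starts that another transcript keeps, 59.97% held at least 1 and 33.4% held at least 2. A run of G in these windows was thus common, and such a match is a description of letters and not of a binding site.

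**Figure D1:**
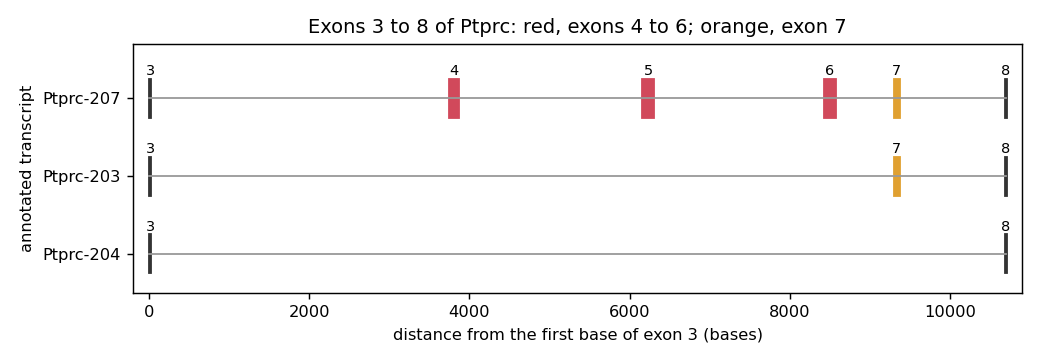
Exons 3 to 8 of 3 annotated Ptprc transcripts, drawn to scale along the gene, with the distance from the first base of exon 3 in bases on the horizontal axis. Ptprc-207 keeps exons 4, 5 and 6, Ptprc-203 lacks them, and Ptprc-204 lacks exon 7 as well.

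The annotation lists 13 Ptprc transcripts, and Ptprc-207 holds exons 4, 5 and 6 while Ptprc-203 skips them, as the map of the exons shows. The deposited counts give 1 value for each gene and library, so they do not separate transcripts with the variable exons from those without. The authors' table of splicing events that differed between the genotypes held 1556 events in 1173 genes, and none of these events was in Ptprc or in any of the other 9 phosphatase genes. Of the genes whose mean reached 100 counts, 10.6% were listed in that table, and among the 3970 genes whose mean reached 1000 counts the share was 12.9%. The table lists only events that passed the limits of the authors, so a Ptprc exon whose use differed by less, or whose junction reads were too few, would not be listed.

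The deletion was visible in the target gene. Hnrnpf gave 5780 and 6634 counts for WT against 1167 and 1194 for Hnrnpf bKO, and its FPKM (fragment counts scaled to the exonic gene size and the library total) was 115.95 and 115.14 against 24.40 and 21.68. The groups were far apart, with a log2 fold change of -2.32 ± 0.06 (SE, n = 2 per group), or 20.1% of the WT level. Library totals lay between 15698567 and 18908963 counts. The FOB identity was checked on marker genes. All 9 B cell markers were expressed, with summed CPM (counts scaled to a common library size) of 18062 and 18163 for WT against 17587 and 17967 for Hnrnpf bKO. The sum hid changes of single markers, as 1 of the 9 rose and 4 fell. That is 55.6% called, beside 6.97% of all tested genes. Of 6 follicular markers 2 rose and 1 fell, or 50% called. The marker that fell was Cr2, the gene for CD21 of the sort gate, with a log2 fold change of -0.47 ± 0.07 (SE, adjusted p = 0.00140). The gate took cells low in CD21 in both groups, and the paper gated marginal zone B cells as CD21+. What the fall of Cr2 says of follicular identity was not tested. Of 7 marginal zone, transitional and plasma cell markers 2 rose and 1 fell, or 42.9% called, and the fold change was positive for 6 of the 7. Their summed level was 109 and 131 CPM for WT against 139 and 151 for Hnrnpf bKO, without overlap, and Cd93, the gene for the antigen gated out by the sort, rose by 0.85 ± 0.16 (log2, SE, adjusted p = 0.00661). The 8 T cell markers together had 40.2 and 55.1 CPM in WT and 37.4 and 46.1 CPM in Hnrnpf bKO, and 0 of 8 was called by edgeR, also at an unadjusted p under 0.05. Of the 6 myeloid markers tested, 2 were called (33.3%), and these rose by more than 1 on the log2 scale. They were S100a8 with 30 and 48 counts in WT against 81 and 134 in Hnrnpf bKO, and S100a9 with 52 and 90 against 119 and 223. The fold change was positive for 4 of the 6 and negative for 2. At an unadjusted p under 0.05 in edgeR, 1 of the 6 was lower. The summed level of the 8 myeloid markers was 13.9 and 20.8 CPM against 23.6 and 34.7 CPM, and Ptpn6 and Ptprc are also expressed by myeloid cells. The part of these marker changes in the results below was not tested.

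The level of the 10 phosphatase mRNAs, compared per length as FPKM, spanned 71.2-fold in WT from the highest to the lowest and 67.2-fold in Hnrnpf bKO. Ptpn6 was at the top with 399 ± 12.9 FPKM (SD, n = 2) in WT, and Ptprc came next with 100.1 ± 0.304. Ptpn1, the gene for PTP1B, followed with 49.9 ± 0.445, and Ptprj, the gene for the receptor-type phosphatase CD148, had 27.3 ± 3.68. The next were Ptpn18 with 17.8 ± 0.849, Ptpn11 with 17.4 ± 0.141, Ptpn22 with 14.5 ± 1.54, Ptpn2 with 11.3 ± 0.120, Ptpra with 7.96 ± 0.629 and Ptpn12 with 5.61 ± 0.247 FPKM. The order of the means was the same in both genotypes. Among neighbours in this order, the libraries of Ptpn18 and Ptpn11 overlapped in WT, and those of Ptpn11 and Ptpn22 and of Ptpn22 and Ptpn2 overlapped in Hnrnpf bKO, so these neighbours did not differ beyond their spread.

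**Figure D2:**
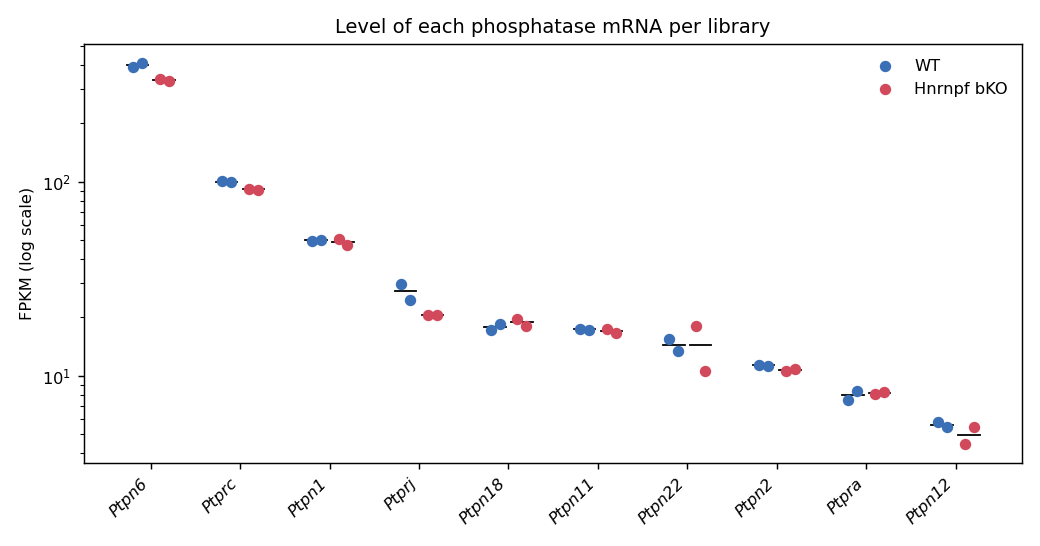
FPKM of each phosphatase mRNA on a log axis, with a point for each of the 4 libraries and a line at the mean of each group (n = 2). Ptpn6 and Ptprc are the highest in both genotypes, and the Hnrnpf bKO points of Ptpn22 lie far apart, at 18.12 and 10.60.

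The FPKM divides by the exonic gene size, which pools the exons of all transcripts and for Ptprc is 18313 bases, whereas its principal transcript has 4702 bases. That transcript is Ptprc-203, which lacks exons 4, 5 and 6, whereas the B220 antibody of the sort recognises an isoform that keeps variable exons. When CPM was divided by the length of the principal transcript instead, an alternative chosen after the data had been seen, Ptprc had 389 CPM per kb in WT beside 502.5 for Ptpn6, and Ptpn18 moved above Ptpn1 with 74.0 against 65.4. The ranks of Ptpn6, Ptprc, Ptpn2, Ptpra and Ptpn12 were the same on both scales.

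Which of these mRNAs differed in abundance between WT and Hnrnpf bKO FOB cells was tested with edgeR's quasi-likelihood test, and p-values were adjusted by the Benjamini-Hochberg method over 14123 genes. All 10 genes passed the filter on low counts, with no library under 245 counts. At an adjusted p of at most 0.05, 2 of the 10 phosphatase mRNAs differed, Ptpn6 and Ptprj. Both were lower in Hnrnpf bKO, while 0 were higher. The count of 0 higher was the same with DESeq2, with limma and, in edgeR, at an unadjusted p under 0.05. DESeq2 also called Ptpn6 and Ptprj as lower, whereas limma on FPKM called neither. Over all genes tested with edgeR, 6.97% passed in either direction, 2.83% as lower and 4.15% as higher. None of the 10 reached a fold change of 2 at this adjusted p, which 0.899% of the tested genes did. At an unadjusted p under 0.05 the count was 3 of 10, with Ptprc as the additional gene. The fold change was negative for 8 of the 10 and positive for 2, with a median log2 fold change of -0.04 beside -0.00 over all genes tested. The libraries of WT and Hnrnpf bKO did not overlap in CPM for 5 of the 10 genes, close to the 50.1% of all tested genes for which this held. The summed level of the 10 mRNAs was 3942 and 3920 CPM in WT and 3608 and 3513 CPM in Hnrnpf bKO. An exact permutation test of 2 against 2 libraries cannot go below p = 0.333, so single values were not tested in that way.

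**Figure D3:**
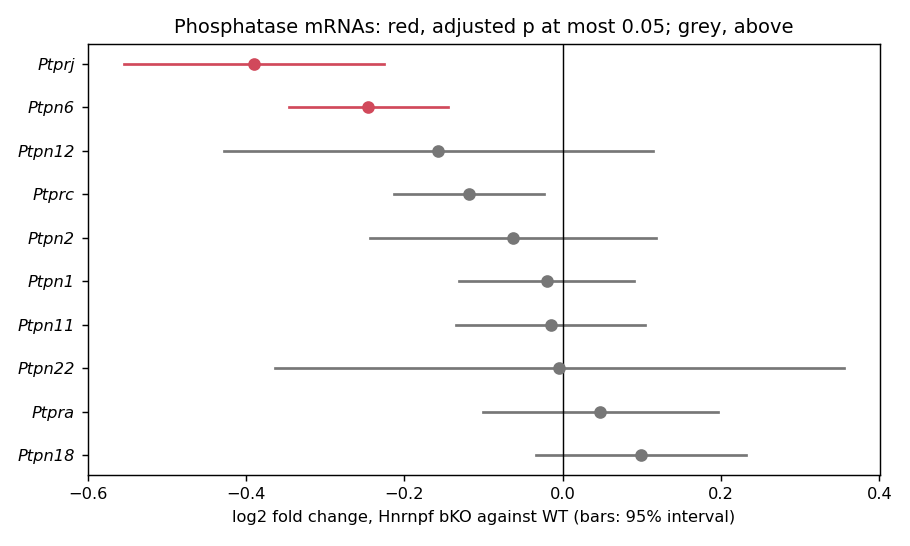
Log2 fold change of each phosphatase mRNA in Hnrnpf bKO against WT, with its 95% interval as a bar (n = 2 per group). The intervals of Ptprj, Ptpn6 and Ptprc lie below 0, and of these Ptprj and Ptpn6 have an adjusted p of at most 0.05.

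CD45 is the receptor-type phosphatase on which the sort gate rests. Ptprc (ENSMUSG00000026395) gave 30069 and 34604 counts for WT against 26416 and 30157 for Hnrnpf bKO. Its FPKM was 100.36 and 99.93 for WT against 91.89 and 91.11 for Hnrnpf bKO. Both Hnrnpf bKO values were below both WT values, and the values within each genotype lay close together. The log2 fold change was -0.12 ± 0.04 (SE, 95% interval -0.21 to -0.02), which corresponds to 92.1% of the WT level, with an unadjusted p of 0.0179 and an adjusted p of 0.136 in edgeR's quasi-likelihood test. Ptprc was therefore not called, although its interval lay below 0, and with each library left out in turn the log2 fold change stayed between -0.12 and -0.11. The interval leaves room for a level between 86.2% and 98.3% of WT. The gate required B220 in both genotypes, so cells without that CD45 isoform are not represented in these libraries.

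SHP-1 is a cytoplasmic phosphatase that binds phosphorylated inhibitory motifs of CD22, CD72 and related receptors. Ptpn6 gave 17875 and 21630 counts for WT against 14922 and 16653 for Hnrnpf bKO. The FPKM was 389.93 and 408.24 for WT against 339.23 and 328.82 for Hnrnpf bKO, so that both Hnrnpf bKO libraries were below both WT libraries. Ptpn6 fell by 0.25 ± 0.05 on the log2 scale (SE, 95% interval -0.35 to -0.14), to 84.4% of the WT level, with an adjusted p of 0.00695 in edgeR's quasi-likelihood test. Over the alternative settings with all 4 libraries its adjusted p ranged from 4.41e-06 to 0.0942, and the limma fits on FPKM did not pass (adjusted p = 0.0901 and 0.0942). Without Hnrnpf bKO replicate 2 the adjusted p was 0.0532. In bulk samples such as these, fewer cells of a type and less RNA per cell cannot be told apart.

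CD148, the product of Ptprj, is a receptor-type phosphatase that shares with CD45 the removal of the inhibitory phosphate from Src family kinases in B cells and myeloid cells. Ptprj gave 4084 and 3900 counts for WT against 2708 and 3115 for Hnrnpf bKO. Its FPKM was 29.89 and 24.69 for WT against 20.65 and 20.63 for Hnrnpf bKO. The groups did not overlap, but the WT libraries differed 1.22-fold, more than for 98.9% of the genes whose mean reached 1000 counts. Ptprj fell by 0.39 ± 0.08 on the log2 scale (SE, 95% interval -0.55 to -0.23), to 76.3% of the WT level, with an adjusted p of 0.00810. The size depended on which WT library was kept. The log2 fold change was -0.24 without WT replicate 1 and -0.52 without WT replicate 2, and the adjusted p of the 4 fits without 1 library stayed at or below 0.0404. With all 4 libraries the adjusted p of the alternatives ranged from 1.94e-09 to 0.165, and the limma fits on FPKM did not pass.

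The start regions of Ptpn6 and Ptprj are printed because these were the mRNAs that fell. RefSeq sequences on GRCm38.p6 were given for 8 of the 10 genes and run from 250 bases before to 50 bases after a start. Capitals mark the core of ETS sites (letters GGAAG, on either strand) and GC boxes (GGGCGG, on either strand), with overlapping GC boxes run together.
Ptpn6, chr6:124738660-124738959, minus strand: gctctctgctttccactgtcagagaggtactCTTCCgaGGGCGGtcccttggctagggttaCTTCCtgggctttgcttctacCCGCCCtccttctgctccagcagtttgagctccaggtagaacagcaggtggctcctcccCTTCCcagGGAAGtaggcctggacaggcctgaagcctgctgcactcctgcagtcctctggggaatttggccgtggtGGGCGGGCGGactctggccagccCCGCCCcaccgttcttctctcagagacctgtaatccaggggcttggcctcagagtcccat
Ptprj, chr2:90580546-90580845, minus strand: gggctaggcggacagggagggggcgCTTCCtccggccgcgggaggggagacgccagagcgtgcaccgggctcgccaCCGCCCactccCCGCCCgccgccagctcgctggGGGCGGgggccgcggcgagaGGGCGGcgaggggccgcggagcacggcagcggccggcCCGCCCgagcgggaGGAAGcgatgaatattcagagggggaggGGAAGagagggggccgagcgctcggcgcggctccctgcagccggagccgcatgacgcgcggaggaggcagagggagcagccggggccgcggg
The Ptpn6 region held 4 GGAAG and 5 GGGCGG matches, 8 CpG and 61.7% G and C. The Ptprj region held 3 and 5 such matches, 42 CpG and 79.3% G and C, and another annotated start of Ptprj was not printed. Neither held TATAAA. Among 32851 start regions of the same length, 71.4% held GGAAG, 35.7% held GGGCGG and 13.6% held TATAAA, so these letters were not rare and the matches say nothing of binding.

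The other receptor-type gene, Ptpra, encodes a broadly expressed phosphatase that also acts on Src family kinases. Ptpra gave 1332 and 1724 counts for WT against 1369 and 1623 for Hnrnpf bKO. The FPKM values of the genotypes overlapped, at 7.51 and 8.40 against 8.04 and 8.28. The log2 fold change was 0.05 ± 0.07 (SE, 95% interval -0.10 to 0.20, adjusted p = 0.757).

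Among the cytoplasmic phosphatases that were not called, PTP1B and SHP-2 had the narrowest intervals. Ptpn1 encodes PTP1B, which acts on insulin and cytokine receptors and their kinases, and it had 49.62 and 50.25 FPKM in WT against 50.44 and 47.29 in Hnrnpf bKO. The libraries overlapped, and the log2 fold change was -0.02 (95% interval -0.13 to 0.09, adjusted p = 0.875). Ptpn11 encodes SHP-2, which in most pathways promotes Ras and MAP kinase signaling, unlike its relative SHP-1. Its values were 17.47 and 17.27 FPKM for WT against 17.41 and 16.69 for Hnrnpf bKO, again with overlap. The log2 fold change of Ptpn11 was -0.02 (95% interval -0.13 to 0.10, adjusted p = 0.917). These intervals leave room for small changes and do not show that the levels were equal.

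TCPTP, the product of Ptpn2, removes phosphate from JAK kinases and STAT proteins. Ptpn2 gave 584 and 665 counts for WT against 523 and 614 for Hnrnpf bKO, which is 11.42 and 11.25 against 10.66 and 10.87 FPKM. The Hnrnpf bKO values were the lower ones without overlap, yet the log2 fold change of -0.06 ± 0.08 (SE, 95% interval -0.24 to 0.12) had an adjusted p of 0.732.

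Ptpn12, Ptpn18 and Ptpn22 encode the PEST-domain phosphatases, named for a tail rich in proline, glutamate, serine and threonine. Ptpn12, whose product acts on cytoskeletal adaptors, gave 332 and 360 counts for WT against 245 and 348 for Hnrnpf bKO. It was the lowest of the 10 and its FPKM overlapped, at 5.78 and 5.43 against 4.45 and 5.49, with a log2 fold change of -0.16 ± 0.13 (SE, 95% interval -0.43 to 0.11, adjusted p = 0.539). Ptpn18 gave 1830 and 2263 counts for WT against 2013 and 2133 for Hnrnpf bKO. In CPM the Ptpn18 values of WT, 111.9 and 119.0, lay under those of Hnrnpf bKO, 128.4 and 119.1 narrowly, while in FPKM they overlapped at 17.23 and 18.43 against 19.75 and 18.18. Its log2 fold change was 0.10 ± 0.06 (SE, 95% interval -0.03 to 0.23, adjusted p = 0.407).

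Ptpn22 encodes Lyp (PEP in mice), a phosphatase of lymphocytes that acts on Src family kinases and on Syk family kinases, and for this gene the Hnrnpf bKO libraries disagreed. It gave 1724 and 1713 counts for WT against 1927 and 1298 for Hnrnpf bKO. The FPKM was 15.55 and 13.37 in WT, 18.12 in Hnrnpf bKO replicate 1 and 10.60 in Hnrnpf bKO replicate 2, so that the Hnrnpf bKO libraries lay on either side of both WT libraries. They differed 1.70-fold, more than in 99.9% of the 3970 genes whose mean reached 1000 counts, where the median absolute log2 difference between the same libraries was 0.06. The log2 fold change over all 4 libraries was -0.00 ± 0.17 (SE, 95% interval -0.36 to 0.35, adjusted p = 0.993). It became -0.43 (adjusted p = 0.0143) without Hnrnpf bKO replicate 1 and 0.33 (adjusted p = 0.00589) without Hnrnpf bKO replicate 2, so its direction depended on which library was kept.

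**Figure D4:**
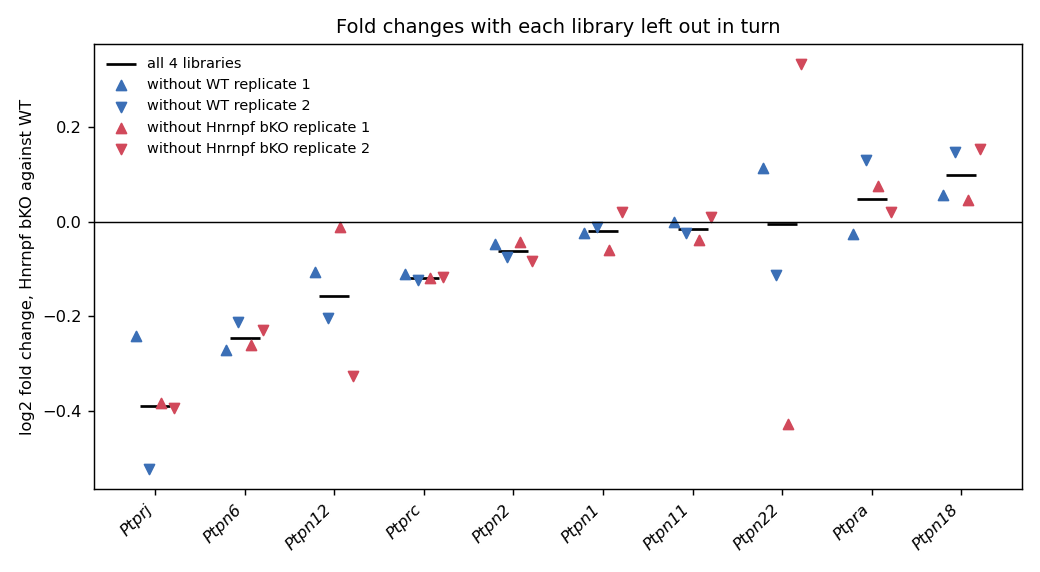
Log2 fold change of each phosphatase mRNA in Hnrnpf bKO against WT with all 4 libraries (line) and with each library left out in turn (triangles). Ptprc stays between -0.12 and -0.11 and Ptpn6 between -0.27 and -0.21, while Ptpn22 runs from -0.43 to 0.33.

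Annotated genes overlap 8 of the 10 phosphatase genes, and the strand setting of the counting is not given in the sources used here, so reads of a gene and of an opposite-strand partner cannot be told apart. The partners had few counts. Gm20531, opposite to Ptpn6, gave 45 and 46 counts for WT against 17 and 20 for Hnrnpf bKO, or 0.180% of the Ptpn6 counts, with a log2 fold change of -1.22 ± 0.35 (SE, adjusted p = 0.0571 in edgeR's quasi-likelihood test). Gm28417, opposite to Ptpn18, had 202, 245, 239 and 233 counts in the 4 libraries, which is 11.2% of the Ptpn18 counts. The share was under 1% for each of the other partners, which were A130071D04Rik at Ptprc, Gm42930 at Ptpn11, Gm43216 at Ptpn12, Gm15602, Gm15472 and Gm43065 at Ptpn22, 4933423P22Rik at Ptprj, and 4930473A02Rik, Gm23876 and 9530056E24Rik at Ptpra. Of these, A130071D04Rik, Gm42930, Gm15472, Gm43065 and 9530056E24Rik lie on the same strand as the phosphatase gene, where the strand setting makes no difference. Ptpn6 and Hnrnpf lie on the same chromosome, with Ptpn6 6.80 Mb beyond the end of Hnrnpf. Of the 53 tested genes between them 6 were called, which is 11.3% beside 6.97% of all tested genes, and 1 of these was lower in Hnrnpf bKO. The part of this neighbourhood in the Ptpn6 result was not tested.

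The other phosphatases and the partners of CD45 and SHP-1 were taken from lists chosen with earlier results of these data known. The 18 other receptor-type phosphatase genes were mostly silent in FOB cells, with 3 tested and 8 at 0 counts in every library. Ptprs, the gene for a receptor of proteoglycans, gave 574 and 761 counts for WT against 834 and 1012 for Hnrnpf bKO, and it rose by 0.54 ± 0.09 (log2, SE, adjusted p = 0.00228). Of 10 other non-receptor genes 6 were tested and 0 were called by edgeR, and the highest of them were Ptpn23 with 19.5 FPKM in WT and 19.1 in Hnrnpf bKO, and Ptpn7 with 12.9 and 12.5 FPKM. At an unadjusted p under 0.05 the count was 1, Ptpn14, named after its values were seen, with 654 and 652 counts for WT against 773 and 760 for Hnrnpf bKO (log2 fold change 0.31 ± 0.10, adjusted p = 0.0905). DESeq2 called 0 of them, and edgeR without the filter on low counts called Ptpn14. Of 40 genes of other phosphatase classes (dual-specificity, slingshot, myotubularin and related) 36 were tested, and 1 passed, Ssh3, a slingshot phosphatase of cofilin, which rose by 0.60 ± 0.07 (log2, SE, adjusted p = 0.000349). Neither limma fit on FPKM called Ssh3 (adjusted p = 0.0587 and 0.0623). In this list 2 were higher and 2 lower without WT replicate 2, Ssh3, Dusp4 and Eya1 among them, and also without the filter on low counts (Ssh3 and Dusp4 against Eya1 and Mtmr4). Dusp4 was called as higher without Hnrnpf bKO replicate 1, and Mtmr4 was called as lower with a minimum of 10 counts per library. These genes were named after their values were seen. The shares of tested genes called, 33.3%, 0% and 2.78% in the 3 lists, stand beside 6.97% over all genes tested.

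Among 13 Src family kinases and their regulators, the substrates and counterparts of CD45, 11 were tested, 1 rose and 2 fell, which is 27.3% called beside 6.97% of all tested genes. Pag1 encodes the membrane adaptor that brings the inhibitory kinase Csk to Src family kinases. It gave 5179 and 6381 counts for WT against 3345 and 3940 for Hnrnpf bKO, without overlap, and it fell by 0.59 ± 0.05 on the log2 scale (SE, adjusted p = 3.8e-05). Matk, which encodes a Csk-related kinase, rose by 0.53 ± 0.11 (log2, adjusted p = 0.0137), from 5.22 to 7.49 FPKM, and its adjusted p was 0.0676 without WT replicate 1. Lyn and Csk, named for their roles after their values were seen, had log2 fold changes of -0.07 (adjusted p = 0.442) and 0.04 (adjusted p = 0.708), and Csk was listed with 1 skipped-exon event in the splicing table.

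Of 17 receptors and adaptors that recruit SHP-1 or SHP-2, 15 were tested, 3 rose and 0 fell in edgeR and in DESeq2. At an unadjusted p under 0.05, 5 were higher and 3 lower, the latter being Cd22, Pecam1 and Ceacam1, all 3 of which were called as lower without the filter on low counts. Pecam1, which encodes an adhesion receptor of leukocytes, was also called as lower with RLE size factors, with a minimum of 10 counts per library and without Hnrnpf bKO replicate 1, and Ceacam1 without Hnrnpf bKO replicate 2. Pecam1 and Ceacam1 were named after their values were seen. The share called by the main test was 20.0% of the 15, beside 6.97% of all tested genes. Siglecg, an inhibitory lectin of B cells, gave 14170 and 16625 counts for WT against 16868 and 19908 for Hnrnpf bKO and rose by 0.33 ± 0.05 (log2, SE, adjusted p = 0.000923). Fcgr2b, the inhibitory Fc receptor of B cells, rose by 0.33 ± 0.05 (adjusted p = 0.00156), from 43.4 to 54.2 FPKM. Btla, an inhibitory receptor of lymphocytes, rose by 0.24 ± 0.06 (adjusted p = 0.0421), but its adjusted p was 0.409 without Hnrnpf bKO replicate 1, with a log2 fold change of 0.12. Cd22, the best known of these receptors and named here for its role after its values were seen, had 425.8 FPKM in WT and 388.4 in Hnrnpf bKO, with a log2 fold change of -0.12 ± 0.04 and an adjusted p of 0.135. The median log2 fold change of the 15 was 0.02. In the authors' splicing table Siglecg was listed with 3 events (2 retained introns and 1 skipped exon), Fcgr2b with 2 skipped exons and Ceacam1 with 1.

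The 19 substrates and pathway kinases were all tested, and 2 rose and 1 fell, which is 15.8% called beside 6.97% of all tested genes. Jak3, the kinase of cytokine receptors with the common gamma chain, rose by 0.30 ± 0.06 (log2, SE, adjusted p = 0.00920), and Pstpip1, an adaptor bound by PEST-domain phosphatases, rose by 0.23 ± 0.06 (adjusted p = 0.0286). Tyk2, another kinase of cytokine receptors, fell by 0.22 ± 0.05 (adjusted p = 0.0257). DESeq2 did not call Tyk2 (adjusted p = 0.0518) or Pstpip1 (adjusted p = 0.0873), and without WT replicate 1 Jak3 had an adjusted p of 0.0544. Without WT replicate 2 and without Hnrnpf bKO replicate 1 the adjusted p of Tyk2 was 0.156 and 0.127, and for Pstpip1 it was 0.0571, 0.112 and 0.124 without WT replicate 1, WT replicate 2 and Hnrnpf bKO replicate 2.

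Regulators of CD45 variable exon splicing were examined last. Of 9 such genes 9 were tested, and 1 rose, Srsf1, which encodes a serine/arginine-rich splicing factor. This is 11.1% of the list, near the 6.97% of all tested genes. Srsf1 gave 6963 and 8359 counts for WT against 7859 and 8807 for Hnrnpf bKO and rose by 0.20 ± 0.05 (log2, SE, adjusted p = 0.0248). The call did not hold without WT replicate 1 (adjusted p = 0.0930), Hnrnpf bKO replicate 1 (0.132) or Hnrnpf bKO replicate 2 (0.0621), nor in the limma fits on FPKM (0.139 and 0.141). Hnrnpl and Hnrnpll encode the main factors known to bind the variable exons and were named after their values were seen. Hnrnpl was abundant, with 75.4 FPKM in WT and 76.0 in Hnrnpf bKO and with an adjusted p of 0.842, whereas Hnrnpll gave 13 and 13 counts for WT against 9 and 15 for Hnrnpf bKO, too few to show a difference of moderate size. None of the 9 was listed in the splicing table.

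**Figure D5:**
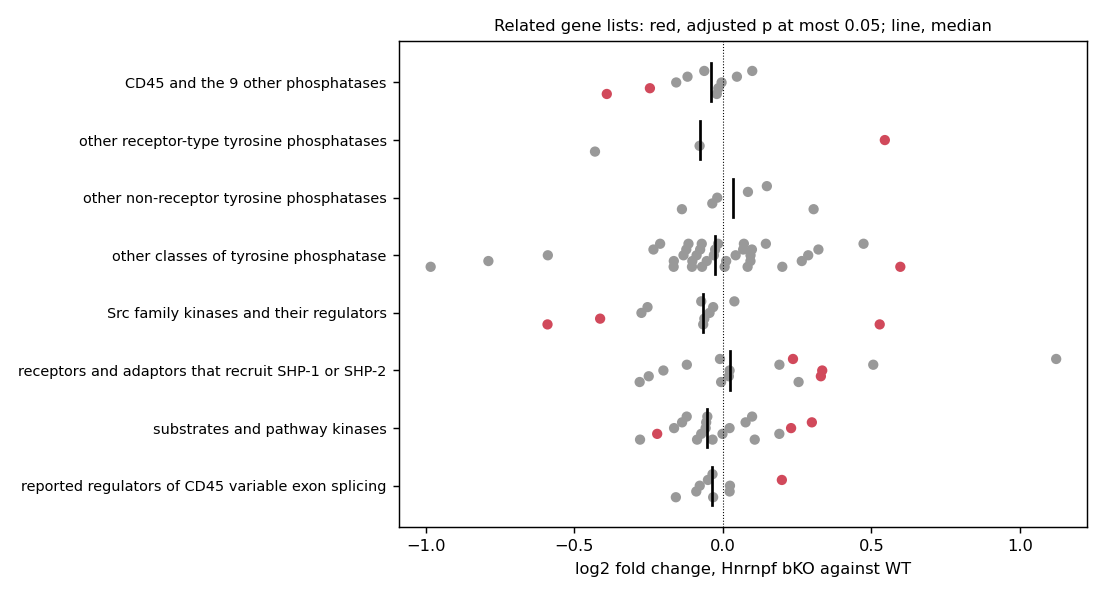
Log2 fold change in Hnrnpf bKO against WT of each tested gene in the phosphatase, kinase, receptor and splicing regulator lists, with a point for each gene and a line at the median of the list. Red points have an adjusted p of at most 0.05, and Pag1 at -0.59 and Ssh3 at 0.60 are the called genes with the largest changes on either side.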

How the data were processed

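RNA of FACS-sorted FOB cells from 2 WT and 2 Hnrnpf bKO samples was sequenced, and samples were grouped by their titles. Per the submitters' processing notes the authors used bcl2fastq 2.17.1.14, FastQC 0.10.1, cutadapt 1.9.1, HISAT2 2.0.1, GRCm38 and HTSeq 0.6.1. The deposited counts are whole numbers of reads for each gene and library, without normalization. In the deposited table FPKM was derived by the authors from counts, exonic gene size and library total, so a gene with many transcripts is divided by a large size. The strand setting and the annotation release are not given in the sources used here. The authors' splicing table, made with rMATS from all 4 libraries, holds for each event a p-value adjusted as FDR and a score, the inclusion level difference between genotypes. These are the authors' comparisons, and only the listing of genes and event types was used from them. The number of columns of per-sample values left without a sample was 0.

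Counts were compared with edgeR 4.0.16 in R 4.3.3 (TMM, filterByExpr, quasi-likelihood test, Benjamini-Hochberg adjustment over 14123 genes, threshold 0.05). The study used DESeq2, here an alternative (version 1.42.0). Further alternatives were RLE size factors, no filter, a minimum of 10 counts per library, limma 3.58.1 on log2(FPKM + 0.1) and log2(FPKM + 1) where the mean FPKM reached 0.5, a replicate block, and each library left out in turn. With 1 library left out, the lone sample of its group was assumed to vary like those of the other group. CPM used TMM library sizes. Sequences came from GENCODE M21 transcripts and RefSeq start regions, read with Python 3.11.15. The biological coefficient of variation was 5.90%, and log2 fold changes had a median standard error of 0.08 among genes whose mean reached 100 counts. On simulated data for Hnrnpf bKO against WT over 14090 genes, 9 of 50 genes changed by a log2 of 0.25 were called, 30 of 49 at 0.5, 46 of 49 at 1 and 48 of 48 at 2, with 2 false calls.

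The 10 genes and the related lists were chosen with earlier results of these data known. Named genes were these 10, Hnrnpf, overlapping genes, and from each related list the genes with an adjusted p of at most 0.05 (the 4 lowest where there were more) or, where none passed, the 2 with the highest mean FPKM. Up to 3 genes with the highest mean FPKM were to be named from each marker list, and most are given here as sums. Others are said to be named after their values were seen. Some genes that these rules would name are not reported here.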

Additional observations from a re-analysis of the deposited data

How the results depend on the processing

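The direction of Ptprc, Ptpn6, Ptprj, Ptpn2, Ptpn12 and Ptpn18 was the same in the 11 alternative fits, and the median log2 fold change over all genes moved by less than 0.1 in each. Neither limma fit on FPKM called any of the 10 phosphatase mRNAs (0 lower), with log2 fold changes for Ptpn6 of -0.26 on both scales (adjusted p = 0.0901 and 0.0942) and for Ptprj of -0.39 and -0.38 (adjusted p = 0.164 and 0.165). With 1 library left out the count was 1 to 3 lower and 0 to 1 higher. The corresponding log2 fold changes were -0.27 to -0.21 for Ptpn6, -0.52 to -0.24 for Ptprj, -0.43 to 0.33 for Ptpn22, -0.060 to 0.021 for Ptpn1, -0.039 to 0.010 for Ptpn11 and -0.025 to 0.13 for Ptpra. The changes of sign were at 0.021 for Ptpn1, 0.010 for Ptpn11, 0.11 and 0.33 for Ptpn22 and -0.025 for Ptpra.

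Over all genes the main counts were 586 higher and 399 lower, and they became 370 and 251 with DESeq2, 378 and 234 with the replicate block, and 29 and 16 or 26 and 15 with limma at a pseudocount of 0.1 or 1. Without the filter on low counts 834 were higher and 636 were lower. Past a fold change of 2 the main counts were 91 higher and 36 lower, against 57 and 16 with DESeq2, 150 and 67 without the filter, and 17 and 5 or 16 and 3 with limma. The lower count was 28 to 56 with 1 library left out.

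The replicate numbers are a number in the labels, with no statement of a shared litter or day, and deviations of same-numbered libraries had a correlation of -0.0956 over 9875 genes, so they were not taken as pairs. With the replicate block Ptpn6 (adjusted p = 0.0398) and Ptprj (adjusted p = 0.0167) were still called and no other of the 10 was. The block ended the calls of Btla (adjusted p = 0.0832), Tyk2 (0.0729), Pstpip1 (0.0826) and Srsf1 (0.0917) in the related lists. In these lists the limma fits on FPKM called 1 gene, Pag1, and the adjusted p of the other genes called by the main test was 0.0587 to 0.288. With 2 libraries per group the self-test called 9 of 50 genes changed by a log2 of 0.25, the size seen for Ptpn6. It pooled genes of all abundances among 14090, so it does not give the rate for genes as abundant as the phosphatases. Among those not called, the main intervals of Ptpn12 (-0.43 to 0.11) and Ptpn22 (-0.36 to 0.35) leave room for a change of that size. The intervals of Ptprc, Ptpn1, Ptpn2, Ptpn11, Ptpn18 and Ptpra do not reach 0.25 in either direction.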

Other observations

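A difference between the Hnrnpf bKO libraries as large as that of Ptpn22, taken in either direction, was found for few genes of similar abundance. These genes were looked up after the Ptpn22 values had been seen. Among genes whose mean reached 1000 counts, only Gm43305 and Slc15a2 differed more between these libraries than Ptpn22 did. Slc15a2, a peptide transporter, gave 5 and 1646 counts for WT against 837 and 2081 for Hnrnpf bKO, so the WT libraries differed in it as well. It was lower in Hnrnpf bKO replicate 1, whereas Ptpn22 was higher there. Sp140, a nuclear body gene of lymphocytes, was next after Ptpn22, with 37.67 and 37.26 FPKM for WT against 32.48 and 19.15 for Hnrnpf bKO. Ddit4, Sesn1 and the PI3K inhibitor Pik3ip1 were also among the 10 genes with the largest difference, and were higher in Hnrnpf bKO replicate 1. Pik3ip1 was at 21.53 and 18.19 FPKM for WT against 39.93 and 25.02 for Hnrnpf bKO. Hsph1, also among the 10, went the other way, with 12.08 and 9.64 FPKM for WT against 7.58 and 10.50 for Hnrnpf bKO. These are values of single libraries, and what they share with Ptpn22 was not tested.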
